A study of Mus musculus with 56 samples.

Results

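The T cell factors TCF7, LEF1 and TCF7L2 and the quiescence-linked factors SATB1, BACH2, MYB, FOXO1 and FOXP1 were followed in fetus/graft-specific CD8 T cells (TFGS), the OVA:Kb-specific cells of female C57BL/6 mice. The members are the 8 genes Tcf7, Lef1, Tcf7l2, Satb1, Bach2, Myb, Foxo1 and Foxp1 out of 55359 genes in the count table, found by Ensembl identifier, and all 8 passed the filter on low counts. They were chosen as a family and by no cutoff on a measured value, though earlier results of these data were known. Naive mice had met neither a graft nor a pregnancy. Sensitized mice had rejected a 2W-OVA.BALB/c skin graft at least 30 days earlier. N+P mice were naive and S+P mice were sensitized before a semi-allogeneic pregnancy by 2W-OVA.BALB/c males, and both were harvested on day 0 to 3 after birth. All mice were females bought at 8 to 12 weeks of age, and their TFGS came from spleen and lymph nodes as tetramer-binding CD8 T cells. Post-partum cells were also sorted by surface phenotype into N+P C1 (PD1-), S+P C4 (PD1-), N+P C5 and S+P C5 (PD1+ CD73+) and S+P C7 (PD1+ CD73-), where PD1 is an inhibitory receptor and CD73 an ectoenzyme linked to anergy. Each library held the RNA of 200 sorted cells, and 30 samples were compared (3 Naive, 3 N+P C1, 3 N+P C5, 4 Sensitized, 6 of S+P C4, 6 of S+P C5, 5 of S+P C7). With bulk RNA from a pool, fewer cells that express a gene and less RNA per cell cannot be told apart.

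TCF7 (the TCF1 protein), LEF1 and TCF7L2 share a high-mobility-group domain that binds DNA, and they recruit beta-catenin or Groucho/TLE corepressors to their targets. TCF7 and LEF1 are abundant in naive T cells, and TCF7 is kept in memory and in stem-like exhausted CD8 T cells while effector and terminally exhausted cells lose it. SATB1 is a chromatin organizer of thymocytes and resting T cells that represses the gene for PD1, and FOXO1 and FOXP1 hold naive T cells in quiescence. BACH2 restrains effector genes at AP-1 sites, and MYB supports stem-like CD8 cells.

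The starts of Satb1, Lef1 and Tcf7 are shown because these 3 genes separated the groups in different ways. Each line gives the 250 bases before the outermost annotated start, on the gene's own strand from 5′ to 3′, in GRCm39 (GENCODE M39). Satb1 lies on the minus strand of chromosome 17 (gene 52043114 to 52140622, window chr17:52140623-52140872), Lef1 on the plus strand of chromosome 3 (gene 130903919 to 131018005, window chr3:130903669-130903918) and Tcf7 on the minus strand of chromosome 11 (gene 52143107 to 52174619, window chr11:52174620-52174869).
Satb1: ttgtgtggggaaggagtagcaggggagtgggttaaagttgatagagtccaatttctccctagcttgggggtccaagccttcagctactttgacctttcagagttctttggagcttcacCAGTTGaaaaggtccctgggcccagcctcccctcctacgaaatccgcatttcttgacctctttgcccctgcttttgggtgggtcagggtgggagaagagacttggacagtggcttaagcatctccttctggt
Lef1: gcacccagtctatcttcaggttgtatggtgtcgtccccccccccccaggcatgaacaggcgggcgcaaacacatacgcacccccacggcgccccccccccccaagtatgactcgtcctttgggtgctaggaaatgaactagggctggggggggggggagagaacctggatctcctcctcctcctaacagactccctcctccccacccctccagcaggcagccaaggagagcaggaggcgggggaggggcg
Tcf7: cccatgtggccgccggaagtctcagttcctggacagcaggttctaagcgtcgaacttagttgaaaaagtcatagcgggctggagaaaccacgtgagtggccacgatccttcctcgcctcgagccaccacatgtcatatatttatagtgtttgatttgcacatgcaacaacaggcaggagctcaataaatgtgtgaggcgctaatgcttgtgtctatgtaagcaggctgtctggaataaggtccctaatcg
Capitals mark the MYB motif CAACTG read on the other strand, 132 to 127 bases before the Satb1 start. This was the only match among the 8 genes to 4 motifs searched on both strands. The MYB motif was in 11.1% of the 21757 promoters of the same length, the TCF/LEF motif (CTTTGAA or CTTTGAT) in 8.2%, the forkhead motif GTAAACA in 2.97% and the BACH/AP-1 motif TGANTCA in 6.46%. A match is only these letters in this window. The windows held 49.6% G and C in Tcf7, 52.4% in Satb1, 56% in Foxo1, 65.6% in Lef1, 72% in Foxp1, 73.6% in Tcf7l2, 74% in Bach2 and 81.2% in Myb.

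Levels are CPM, the counts of a gene relative to the library total after TMM scaling. The 30 samples held 15547934 to 54809406 counts, and the 8 T cell markers (Cd3e, Cd3d, Cd3g, Cd8a, Cd8b1, Trac, Trbc1 and Trbc2) were above 3 counts in all 30 samples, with Cd8a from 567 to 1580 CPM. Of 3 CD4 T cell markers, Cd4 was at or under 3 counts in 27 of the 30 samples, Foxp3 in 25 and Cd40lg in only 8. Cd40lg had a median of 4.49 CPM and was highest in N+P C5 replicate 1 (48.1 CPM). 3 samples had under 9000 detected genes, namely replicate 2 (8002) and replicate 3 (7436) of S+P C4, and replicate 3 (7879) of S+P C7. Sampling was uneven at the level of single libraries. Between 2 libraries of 1 mouse and subset (22 pairs) the median absolute difference in log2(CPM + 1) was 0.16 for Foxp1, 0.31 for Tcf7, 0.32 for Satb1, 0.37 for Foxo1, 0.41 for Lef1, 0.72 for Bach2 and 0.91 for Myb. Between 2 mice of 1 group (55 pairs) it was 0.34 for Foxp1, 0.49 for Tcf7, 0.86 for Satb1, 0.80 for Foxo1, 0.76 for Lef1, 0.71 for Bach2 and 1.27 for Myb. Bach2 and Myb thus varied the most between libraries of 1 mouse and subset. Single libraries were scaled by library total only, while the values of mice were TMM-scaled after libraries were summed. The 2 kinds of difference are therefore not strictly comparable.

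**Figure D1:**
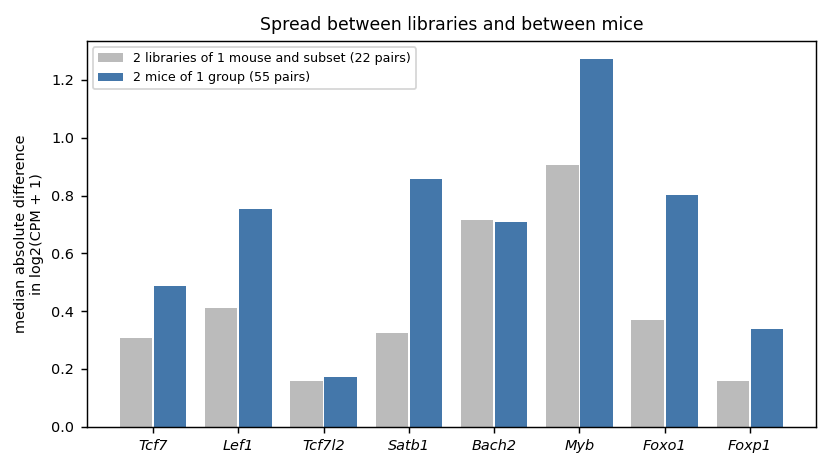
Bars give, for each gene on the x axis, the median absolute difference in log2(CPM + 1) between 2 libraries of 1 mouse and subset (grey, 22 pairs) and between 2 mice of 1 group (blue, 55 pairs). Bach2 has 0.72 and 0.71, and Satb1 has 0.32 and 0.86. Grey bars use single libraries scaled by library total and blue bars use summed libraries with TMM scaling, so the 2 are not strictly comparable.

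Per kilobase of the canonical transcript, Tcf7 (211 CPM/kb), Foxp1 (213) and Lef1 (188) led in Naive TFGS, followed by Satb1 (89.0), Foxo1 (14.5), Bach2 (10.2), Myb (8.42) and Tcf7l2 (0.717). Per kilobase of all annotated exons Tcf7 (191) led, ahead of Lef1 (51.2), Satb1 (26.9) and Foxp1 (24.4). The order of Foxp1 and Lef1 therefore rests on which transcripts are counted as expressed.

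**Figure D2:**
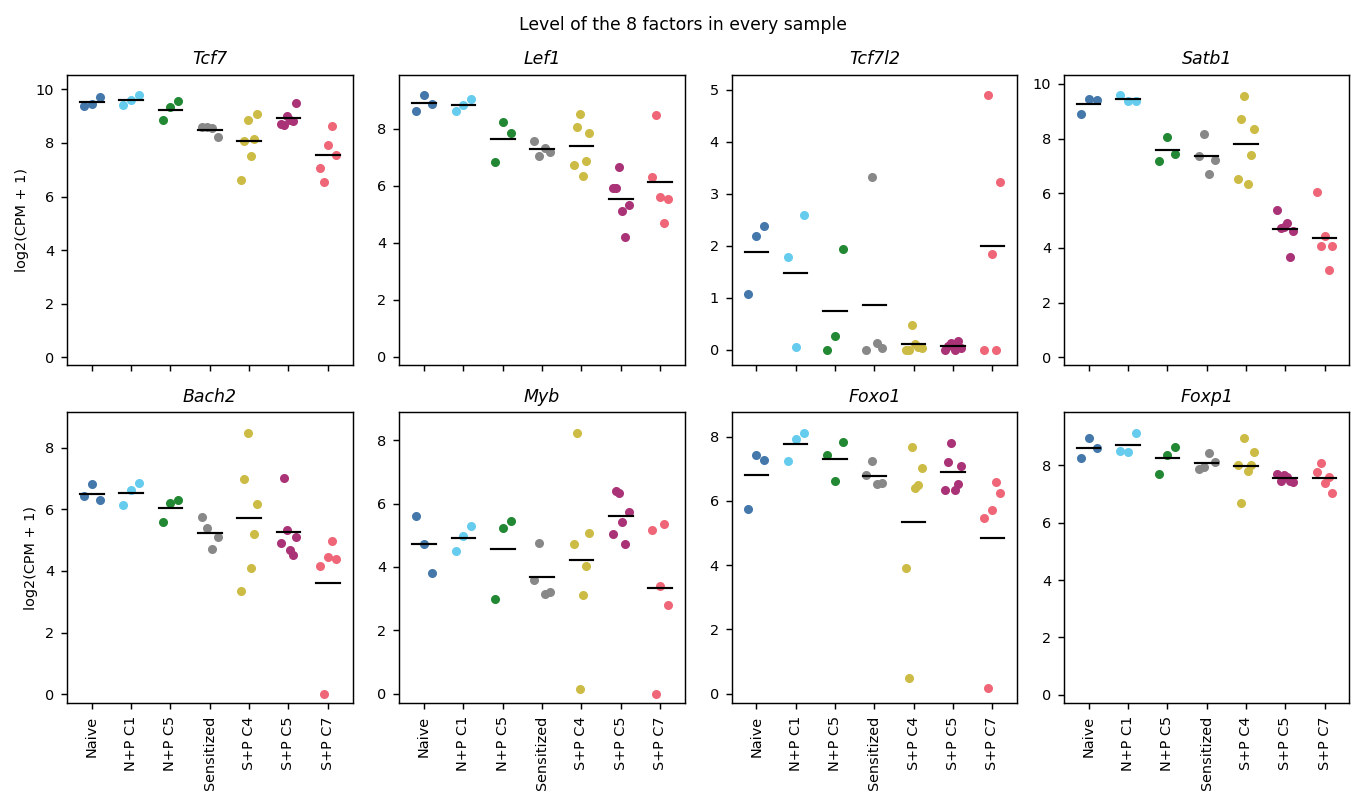
Each point is 1 sample, coloured by group, with log2(CPM + 1) on the y axis and a line at the group mean of these values. Satb1 sits at 8.15 to 64.3 CPM in the S+P C5 and C7 samples and at 79.8 CPM or more in the other 5 groups, while Tcf7l2 is near 0 in most samples.

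Satb1 was the only member that fell past both thresholds in any comparison of the main edgeR fit, made on all 7 groups and 30 samples. Alternative edgeR fits also called Lef1 and, in Sensitized vs. Naive, Tcf7. Satb1 was high in Naive and N+P C1 TFGS, lower in N+P C5 and Sensitized TFGS, and lowest in the PD1+ subsets of sensitized post-partum mice. Naive TFGS had 482, 695 and 683 CPM, and N+P C1 TFGS 763, 668 and 658 CPM. N+P C5 TFGS had 145, 266 and 174 CPM, and Sensitized TFGS 165, 287, 103 and 149 CPM. The lowest, median and highest values were 79.8, 247 and 751 CPM in S+P C4 and 11.8, 26.0 and 41.3 CPM in S+P C5. S+P C7 TFGS had 64.3 (replicates 1 and 2 as 1 sample), 15.9, 20.8, 8.15 and 15.8 CPM. Neither PD1+ subset of S+P mice reached the lowest sample of any other group, and these 2 groups overlapped each other.

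In S+P C5 vs. Sensitized TFGS, Satb1 fell by 2.74 on the log2 scale (SE 0.52, adjusted p = 0.0339, by the edgeR quasi-likelihood test, with p-values adjusted by Benjamini-Hochberg over 19657 genes). It was the only member of the 8 past both thresholds (log2 fold change beyond 0.9 in either direction and adjusted p under 0.1), where 0.0712% of all genes were. In S+P C7 vs. Sensitized it fell by 2.82 (SE 0.56, adjusted p = 0.0692 by edgeR), again the only member, against 0.0305% of genes. Both calls were lost when single samples were left out. Without Sensitized replicate 2, or without S+P C5 replicate 4, 5 or 6, no member was past the thresholds in S+P C5 vs. Sensitized, with an adjusted p up to 0.217 by edgeR and log2 fold changes of -2.92 to -2.40. In S+P C7 vs. Sensitized the call stayed only without the merged replicates 1 and 2 and was lost without any other sample, with an adjusted p from 0.00608 to 0.413 by edgeR and log2 fold changes of -3.54 to -2.48.

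In S+P C5 vs. S+P C4 TFGS, taken as the same mice by their shared numbers, Satb1 fell by 3.53 on the log2 scale (SE 0.51, adjusted p = 0.00183 by edgeR). It was again the only member past both thresholds, against 0.0305% of all genes, and it was lower in S+P C5 in 6 of 6 mice. The highest S+P C4 values, 751 CPM in replicate 3 and 415 CPM in replicate 2, came from samples with under 9000 detected genes. Replicates 1, 4, 5 and 6 of S+P C4 had 89.9, 79.8, 170 and 323 CPM of Satb1. The call stayed without any single sample (adjusted p 0.000359 to 0.0115 by edgeR). With the replicate block, which sets each mouse against itself in a fit of these 2 groups, the log2 fold change was -3.23 and the adjusted p 0.45 by edgeR, so the call was lost. The adjusted p over all alternatives ranged from 2.73e-10 to 0.45. Satb1 was also lower in S+P C7 than in S+P C5 in 4 of 4 mice, where the unadjusted p was not under 0.05.

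The same direction was seen on the naive side. In N+P C5 vs. Naive the log2 fold change of Satb1 was -1.67 (SE 0.67, unadjusted p = 0.0187, adjusted p = 0.765 by edgeR), and in N+P C5 vs. N+P C1 it was -1.84 (SE 0.68, unadjusted p = 0.0107, adjusted p = 0.919 by edgeR). No sample overlapped in either comparison, and N+P C5 was lower in 3 of 3 mice. With the replicate block the second had a log2 fold change of -1.88 and an adjusted p of 0.0955 by edgeR, so that the call was made there (adjusted p 0.0562 to 1 over all alternatives). In Sensitized vs. Naive it was -1.82 (SE 0.62, unadjusted p = 0.00591, adjusted p = 0.627 by edgeR), with no overlap. Between the PD1+ CD73+ subsets, S+P C5 vs. N+P C5, it was -2.89 (SE 0.55, unadjusted p = 1.02e-05, adjusted p = 0.135 by edgeR), and every S+P C5 sample (11.8 to 41.3 CPM) was under every N+P C5 sample (145 to 266 CPM).

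**Figure D3:**
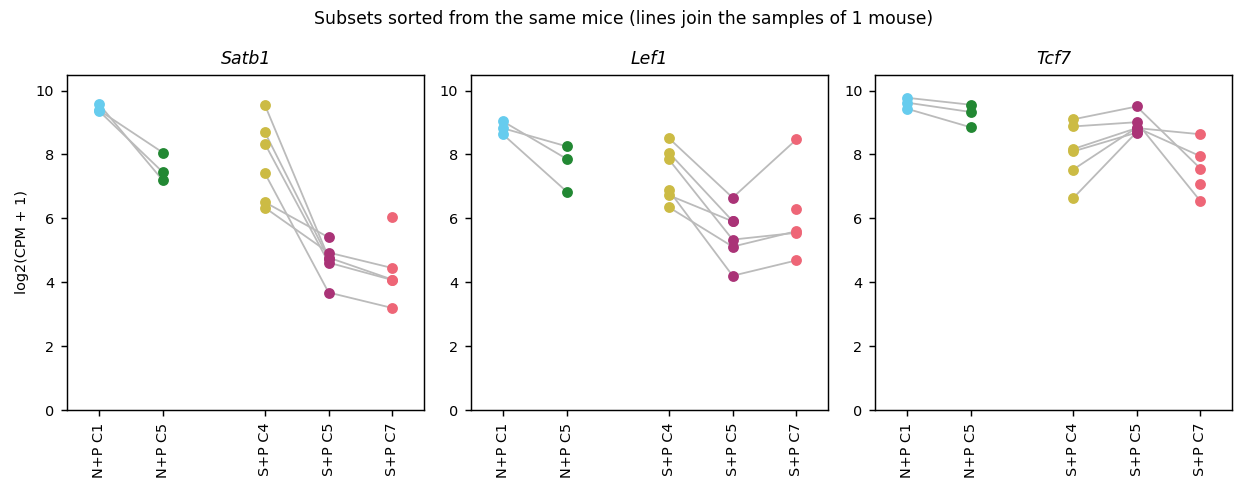
log2(CPM + 1) of Satb1, Lef1 and Tcf7 in the post-partum subsets, with each point 1 sample and a line joining same-numbered samples, taken as 1 mouse. The S+P C7 point with no line is the merged replicates 1 and 2. From S+P C4 to S+P C5, Satb1 and Lef1 go down and Tcf7 goes up in 6 of 6 mice.

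Satb1 holds transcription units annotated inside its own span, which were counted apart. They were looked at after their values were known and are given as a description. The largest, C230085N15Rik, lies in an intron on the same strand and had 158994 counts over all libraries beside 233707 for Satb1. Its mean was 421 ± 173 CPM (SD, n = 3) in Naive, 503 ± 235 in N+P C1 (n = 3), 163 ± 86.4 in N+P C5 (n = 3) and 106 ± 36.3 in Sensitized (n = 4). It was 182 ± 209 in S+P C4 (n = 6), 6.80 ± 6.42 in S+P C5 (n = 6) and 41.7 ± 63.4 in S+P C7 (n = 5). The order of the groups was close to that of Satb1, except that S+P C7 reached 154 CPM in 1 sample. E430014B02Rik, 5830444F18Rik and Gm37248, also on the Satb1 strand, had means of 88.4, 33.7 and 43.8 CPM in Naive and 5.76, 3.90 and 2.50 CPM in S+P C5. Reads from unspliced Satb1 RNA cannot be told apart from these units.

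Lef1 followed Satb1 in part. Naive TFGS had 397, 574 and 462 CPM and N+P C1 TFGS 394, 451 and 523 CPM. N+P C5 TFGS had 113, 304 and 231 CPM, and Sensitized TFGS 188, 129, 158 and 145 CPM. The lowest, median and highest values were 80.5, 172 and 363 CPM in S+P C4 and 17.4, 49.1 and 99.1 CPM in S+P C5. S+P C7 TFGS had 77.9, 353, 47.5, 24.7 and 45.8 CPM. All S+P C5 samples lay below all Naive, N+P and Sensitized samples, and 1 S+P C7 sample stood apart from the other 4.

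Lef1 did not pass both thresholds in any comparison of the main edgeR fit. Without the 3 samples with under 9000 detected genes, edgeR called Lef1 in Sensitized vs. Naive and in both PD1+ S+P subsets against Sensitized. That fit also called Lef1 between the C5 subsets of sensitized and naive post-partum mice. DESeq2 called it in S+P C5 vs. S+P C4 (log2 fold change -1.95, adjusted p = 0.00546) and against N+P C5 (-2.10, adjusted p = 0.0465), and edgeR with only the 2 groups fitted called it in Sensitized vs. Naive (adjusted p = 0.0169). Its log2 fold change was -1.60 in S+P C5 vs. Sensitized (SE 0.54, unadjusted p = 0.00611, adjusted p = 0.277 by edgeR) and -2.07 against N+P C5 (SE 0.58, unadjusted p = 0.00113, adjusted p = 0.809 by edgeR), with no overlap in either. It was -1.91 in S+P C5 vs. S+P C4 (SE 0.51, unadjusted p = 0.000697, adjusted p = 0.297 by edgeR), lower in 6 of 6 mice. In Sensitized vs. Naive it was -1.62 (SE 0.65, unadjusted p = 0.0179, adjusted p = 0.627 by edgeR), with no overlap. In S+P C7 vs. S+P C5 the log2 fold change was 1.10 (SE 0.52, unadjusted p = 0.0412, adjusted p = 0.356 by edgeR), higher in 4 of 4 mice, but without S+P C7 replicate 3 it turned to -0.068.

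S+P C7 replicate 3 also had high levels of some marker genes of other cells. The summed level of the 8 B cell markers was 8234 CPM there and 106 to 270 CPM in the other 4 S+P C7 samples. Nearly all of it was Ighm (8233 CPM), and the rest of that list added almost nothing in this sample. The 8 myeloid markers summed to 6184 CPM against 165 to 207 CPM, mostly Cst3 (6167 CPM). The 5 erythroid markers were at their highest of all samples there, with Hbb-bs at 6454 CPM. So were the sums of the 3 NK cell markers (469 CPM) and of the 3 plasma cell markers (1895 CPM, nearly all Jchain). The B cell markers Ms4a1 and Pax5 were each at or under 3 counts in 27 of the 30 samples. This sample had 353 CPM of Lef1, 28.9 CPM of Tcf7l2 and 0 counts of Bach2 and Myb. Whether other cells contributed to these values was not tested.

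Tcf7 parted from Lef1 and Satb1 in S+P C5. Naive TFGS had 663, 709 and 831 CPM, N+P C1 TFGS 688, 786 and 874 CPM and N+P C5 TFGS 460, 641 and 751 CPM. Sensitized TFGS had 385, 386, 377 and 299 CPM. The lowest, median and highest values were 97.5, 279 and 546 CPM in S+P C4 and 410, 455 and 723 CPM in S+P C5. S+P C7 TFGS had 133, 91.7, 245, 395 and 187 CPM. All S+P C5 samples were above all Sensitized and all S+P C7 samples, and they overlapped N+P C5. Against Sensitized, the unadjusted p of Tcf7 in S+P C5 was not under 0.05 by edgeR.

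The log2 fold change of Tcf7 in S+P C7 vs. S+P C5 was -1.23 (SE 0.35, unadjusted p = 0.00122, adjusted p = 0.278 by edgeR), lower in 4 of 4 mice. Against Sensitized, it was -0.78 in S+P C7 (SE 0.37, unadjusted p = 0.0443, adjusted p = 0.480 by edgeR). Against S+P C4, it was 0.68 in S+P C5 (SE 0.32, unadjusted p = 0.0434, adjusted p = 0.354 by edgeR), higher in S+P C5 in 6 of 6 mice. In Sensitized vs. Naive it was -1.02 (SE 0.42, unadjusted p = 0.0220, adjusted p = 0.627 by edgeR), with no overlap.

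The makeup of the 3 TCF/LEF genes differed between groups. Of their summed CPM per kilobase of canonical transcript, Lef1 made up 46.8% in Naive (range 43.1% to 52.4%), 44.2% in N+P C1 (43.8% to 44.9%), 31.3% in N+P C5 (25.1% to 39.3%) and 36.8% in Sensitized TFGS (31.0% to 39.9%). It made up 46.2% in S+P C4 (35.7% to 59.4%), 12.4% in S+P C5 (4.98% to 20.8%) and 35.6% in S+P C7 (7.85% to 80.6%). Every S+P C5 sample lay under every sample of the other groups except S+P C7. This share was computed after the levels had been seen and has no test. Its size depends on the transcript lengths used. Per kilobase of all annotated exons, Lef1 had 51.2 and Tcf7 191 CPM/kb in Naive TFGS. In S+P C5 TFGS they had 5.49 and 129 CPM/kb, so the share of Lef1 is smaller by that length.

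**Figure D4:**
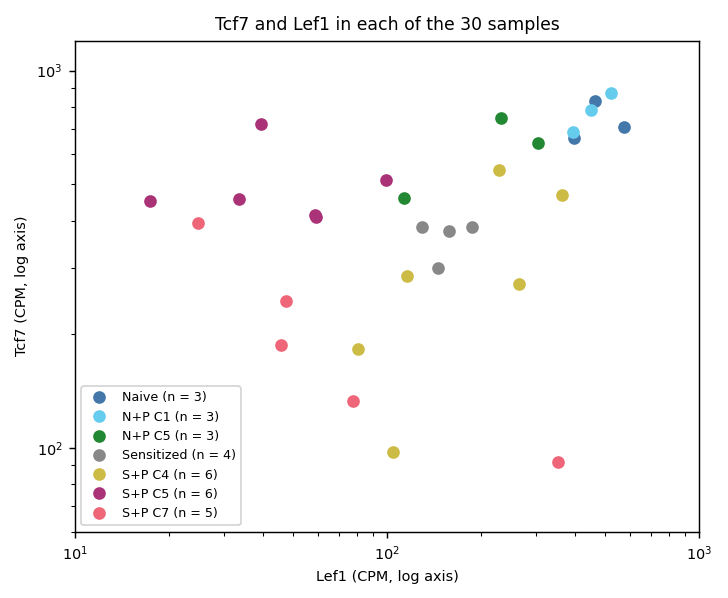
Each point is 1 of the 30 samples, with Lef1 on the x axis and Tcf7 on the y axis, both in CPM on log axes. S+P C5 samples have 410 to 723 CPM of Tcf7 at 17.4 to 99.1 CPM of Lef1, while Naive and N+P C1 samples are high in both.

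Tcf7l2, the family member best known from epithelial Wnt signalling, was at the limit of detection in most samples. Naive TFGS had 1.11, 3.55 and 4.23 CPM, N+P C1 TFGS 2.44, 0.0348 and 5.00 CPM and N+P C5 TFGS 0, 0.205 and 2.86 CPM. In Sensitized TFGS 3 of 4 samples were at or under 3 counts, and replicate 2 had 9.0 CPM. In S+P C4 and in S+P C5, 5 of 6 samples each were at or under 3 counts. S+P C7 TFGS had 0, 28.9, 2.57, 0 and 8.41 CPM, so that 3 of 5 samples held it. Within a mouse it was seen in 1 library and not in the other, with 344 and 0 counts in S+P C7 replicate 6 and 78 and 1 counts in replicate 4.

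The fitted differences of Tcf7l2 rest on few samples. In S+P C7 vs. S+P C5 the unadjusted p was 0.00422 and the adjusted p 0.278 by edgeR. DESeq2 put Tcf7l2 and Tcf7 past the thresholds there, 2 of the 8 members where 1.82% of its genes were, and the adjusted p of Tcf7l2 ranged from 0.00315 to 0.48 over the edgeR and DESeq2 alternatives. In S+P C5 vs. Sensitized (unadjusted p = 0.0191 by edgeR) and S+P C4 vs. Sensitized (unadjusted p = 0.0370 by edgeR) the direction reversed without Sensitized replicate 2. The groups on the lower side were at or near 3 counts per sample, so the sizes of these fitted differences are not interpreted.

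Foxp1, a forkhead repressor of naive T cell activation, ranged from 102 to 553 CPM over the 30 samples and was at its tightest in S+P C5. Its means were 394 ± 92.7 CPM (SD, n = 3) in Naive, 422 ± 113 in N+P C1 (n = 3), 312 ± 96.3 in N+P C5 (n = 3) and 274 ± 52.0 in Sensitized (n = 4). They were 281 ± 130 in S+P C4 (n = 6), 187 ± 15.4 in S+P C5 (n = 6) and 194 ± 52.2 in S+P C7 (n = 5). Against N+P C5, its log2 fold change in S+P C5 was -0.74 (SE 0.35, unadjusted p = 0.0400, adjusted p = 0.844 by edgeR). S+P C5 did not overlap Sensitized or N+P C5, though the unadjusted p against Sensitized was not under 0.05 by edgeR. Gm20696, a coding unit that shares 300 exon bases with Foxp1, had 56.1 ± 10.2 CPM in Naive and 4.72 ± 4.78 CPM in S+P C7 (n = 3 and 5), and how reads in the shared bases were counted is not given in the sources used here.

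Foxo1, which maintains Il7r and Klf2 in naive T cells, had no unadjusted p under 0.05 in any of the 11 comparisons of the main edgeR fit. Its means were 126 ± 64.1 CPM in Naive (n = 3), 222 ± 64.8 in N+P C1 (n = 3), 165 ± 64.5 in N+P C5 (n = 3) and 111 ± 27.0 in Sensitized (n = 4). They were 86.7 ± 75.3 in S+P C4 (n = 6), 126 ± 55.0 in S+P C5 (n = 6) and 53.4 ± 36.3 in S+P C7 (n = 5). The lowest samples were 2 of the 3 with under 9000 detected genes, at 0.417 CPM in S+P C4 replicate 2 and 0.140 CPM in S+P C7 replicate 3.

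Bach2 and Myb had no unadjusted p under 0.05 in any comparison of the main edgeR fit either. Bach2 had 91.4 ± 17.9 CPM in Naive (n = 3), 94.2 ± 22.7 in N+P C1 (n = 3), 66.1 ± 16.2 in N+P C5 (n = 3) and 38.1 ± 11.7 in Sensitized (n = 4), where no Naive and Sensitized samples overlapped. It had 102 ± 131 in S+P C4 (n = 6), 46.1 ± 41.1 in S+P C5 (n = 6) and 17.7 ± 11.1 in S+P C7 (n = 5). Myb had 28.8 ± 17.8 CPM in Naive (n = 3), 30.2 ± 8.48 in N+P C1 (n = 3), 28.7 ± 19.0 in N+P C5 (n = 3), 13.2 ± 8.56 in Sensitized (n = 4), 62.9 ± 115 in S+P C4 (n = 6), 52.4 ± 24.2 in S+P C5 (n = 6) and 18.0 ± 18.0 in S+P C7 (n = 5). The S+P C4 means of both genes were set by the samples with under 9000 detected genes, with Bach2 at 354 CPM in replicate 3 and Myb at 296 CPM in replicate 2 and 0.0993 CPM in replicate 3.

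Taken by comparison, the 8 members stood out from the whole table in few places. In Sensitized vs. Naive, edgeR put 0 of 8 past both thresholds (0.153% of all genes) and DESeq2 0 (5.04%), 3 had an unadjusted p under 0.05 (Tcf7, Lef1 and Satb1, against 7.82% of genes), and 4 did not overlap (these and Bach2, against 7.59%). All 8 fitted changes were negative, with a median of -1.07 against 0.04 over all genes. In N+P C1 vs. Naive, edgeR and DESeq2 put 0 past the thresholds (0% and 3.54% of genes) and 0 had an unadjusted p under 0.05 (3.23%). In N+P C5 vs. Naive both tools put 0 past the thresholds (edgeR 0.0407%, DESeq2 4.87%), 1 had an unadjusted p under 0.05 (Satb1, 5.33%) and 2 did not overlap (Lef1 and Satb1, 12.9%). In N+P C5 vs. N+P C1 both tools put 0 past the thresholds (edgeR 0.00509%, DESeq2 3.77%), 1 had an unadjusted p under 0.05 (Satb1, 4.31%) and 2 did not overlap (Lef1 and Satb1, 10.8%).

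Among sensitized mice the counts were as follows. In S+P C4 vs. Sensitized both tools put 0 of 8 past the thresholds (edgeR 0.00509%, DESeq2 4.65%) and 1 had an unadjusted p under 0.05 (Tcf7l2, 12.7%). For S+P C5 vs. Sensitized, DESeq2 put 2 past the thresholds (Tcf7l2 and Satb1, 5.28%), 3 had an unadjusted p under 0.05 (Lef1, Tcf7l2 and Satb1, 13%) and 4 did not overlap (Tcf7, Lef1, Satb1 and Foxp1, 2.88%). For S+P C7 vs. Sensitized, DESeq2 put 1 past the thresholds (Satb1, 3.46%), 2 had an unadjusted p under 0.05 (Tcf7 and Satb1, 10.2%) and 1 did not overlap (Satb1, 2.15%). Comparing S+P C7 with S+P C5, edgeR put 0 past the thresholds (0%), 3 had an unadjusted p under 0.05 (Tcf7, Lef1 and Tcf7l2, 12.7%) and 1 did not overlap (Tcf7, 0.397%). For S+P C5 vs. S+P C4, DESeq2 put 2 past the thresholds (Lef1 and Satb1, 4.77%), 3 had an unadjusted p under 0.05 (Tcf7, Lef1 and Satb1, 13.3%) and 1 did not overlap (Satb1, 0.687%). For the PD1+ C5 subset of S+P against N+P mice, edgeR put 0 past the thresholds (0%) and DESeq2 2 (Lef1 and Satb1, 2.21%), 3 had an unadjusted p under 0.05 (Lef1, Satb1 and Foxp1, 5.88%) and 3 did not overlap (the same 3, 2.67%). Sensitized TFGS are the reference in 3 of these comparisons, which therefore share samples.

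The difference between post-partum PD1+ CD73+ cells and TFGS of non-pregnant mice was compared between sensitized and naive mice as an interaction. The labels of Naive and Sensitized TFGS name no PD1 or CD73 gate. Gate and pregnancy therefore cannot be told apart here or in S+P C5 and S+P C7 vs. Sensitized. S+P mice were mated at least 30 days after the graft, so time since the graft also differs from Sensitized mice. No member was past the thresholds by edgeR (0.0254% of all genes) or DESeq2 (3.88%), and 0 had an unadjusted p under 0.05 (6.42%). The interaction for Satb1 was -1.07 (SE 0.84, unadjusted p = 0.210, adjusted p = 1 by edgeR), so a greater drop on the sensitized side was not detectable with these samples.

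Genes with related roles were counted from lists in 4 comparisons. Of the naive and stem-like CD8 genes linked to TCF1 or FOXO1 (16 tested), 2 fell past both thresholds in S+P C5 vs. Sensitized, namely Il7r, the IL-7 receptor (log2 fold change -2.28, SE 0.45, adjusted p = 0.0446 by edgeR, 230 ± 45.8 CPM, n = 6, against 1113 ± 310 CPM, n = 4) and Txk, a T cell kinase (log2 fold change -1.89, SE 0.38, adjusted p = 0.0558 by edgeR). Il7r did so in S+P C7 vs. Sensitized as well (log2 fold change -3.55, SE 0.50, adjusted p = 0.00107 by edgeR). The calls in S+P C5 vs. Sensitized rested on single samples. When each of the 10 samples was left out in turn, Il7r lost its call 8 times (adjusted p up to 0.258 by edgeR) and Txk 8 times (up to 0.334). In S+P C7 vs. Sensitized Il7r lost it 0 of 9 times. At an unadjusted p under 0.05, 2 were higher and 6 lower in S+P C5 vs. Sensitized, 0 and 6 in S+P C7 vs. Sensitized, 0 and 4 in Sensitized vs. Naive and 2 and 0 in N+P C5 vs. Naive. Over all genes, the shares higher and lower at this p were 5.26% and 7.72% in S+P C5 vs. Sensitized, 7.36% and 2.84% in S+P C7 vs. Sensitized, 3.84% and 3.98% in Sensitized vs. Naive and 3.23% and 2.1% in N+P C5 vs. Naive. The list medians were 0.07, -0.70, -0.60 and -0.23, against -0.01, 0, 0.04 and 0 over all genes.

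Effector genes opposed by BACH2, TCF1, MYB or FOXO1 (12 tested) included 3 that rose past both thresholds in Sensitized vs. Naive. They were Id2 (log2 fold change 2.46, SE 0.40, adjusted p = 0.00217 by edgeR), Zeb2 (122 ± 55.9 CPM, n = 4, against 0.0964 ± 0.0861 CPM, n = 3, adjusted p = 0.0343 by edgeR) and Bhlhe40 (188 ± 93.6 CPM against 0.132 ± 0.114 CPM, adjusted p = 0.00547 by edgeR), which encode transcription regulators of effector cells. Bhlhe40 also rose in N+P C5 vs. Naive (239 ± 123 CPM, n = 3, adjusted p = 0.0164 by edgeR). Without any 1 of the 3 Naive samples, Zeb2 in Sensitized vs. Naive (adjusted p up to 0.373 by edgeR) and Bhlhe40 in N+P C5 vs. Naive (up to 0.23 by edgeR) lost their calls. With all 56 columns kept, the duplicated library included, Zeb2 (adjusted p = 0.602) and Bhlhe40 (adjusted p = 0.602 in Sensitized and 0.764 in N+P C5 by edgeR) were no longer past them either. At an unadjusted p under 0.05, 9 were higher and 0 lower in Sensitized vs. Naive, 4 and 0 in N+P C5 vs. Naive, 1 and 1 in S+P C5 vs. Sensitized and 1 and 0 in S+P C7 vs. Sensitized, against 3.84% and 3.98%, 3.23% and 2.1%, 5.26% and 7.72%, and 7.36% and 2.84% of all genes. The list medians were 4.89, 2.53, -0.83 and 0.42 in that order.

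The other 3 lists held no gene past both thresholds in these 4 comparisons of the main edgeR fit. Over all genes, 5.26% were higher and 7.72% lower at an unadjusted p under 0.05 by edgeR in S+P C5 vs. Sensitized. In N+P C5 vs. Naive these shares were 3.23% and 2.1%. The list medians in S+P C5 vs. Sensitized were -0.24 (TCF/LEF partners and Wnt regulators), -0.27 (quiescence genes) and -0.08 (family paralogs), against -0.01 over all genes. Of 25 TCF/LEF partners and Wnt regulators tested, 1 was higher and 1 lower at an unadjusted p under 0.05 in S+P C5 vs. Sensitized. These were Rnf43, a Wnt receptor ligase (52.5 ± 18.5 CPM, n = 6, against 3.20 ± 3.38 CPM, n = 4, adjusted p = 0.277 by edgeR), and Tle1, a Groucho corepressor (0.231 ± 0.565 CPM against 8.22 ± 2.97 CPM, adjusted p = 0.286 by edgeR). In N+P C5 vs. Naive 0 had such a p, and the 2 smallest were those of Tle2 and Lrp5, both listed at 0 in all N+P C5 samples. Of 15 quiescence genes tested, 0 were higher and 3 lower in S+P C5 vs. Sensitized, with Btg2, an antiproliferative factor, at a log2 fold change of -1.33 (SE 0.36, unadjusted p = 0.000865, adjusted p = 0.277 by edgeR) and Klf2 at -0.86 (SE 0.37, unadjusted p = 0.0259, adjusted p = 0.302 by edgeR). In N+P C5 vs. Naive none had such a p, and Nfia (13.4 against 4.77 CPM) and Elf4 (126 against 71.6 CPM) had the smallest. The 9 family paralogs tested had 0 at an unadjusted p under 0.05 in both comparisons, and Foxp2, Foxp3 and Mybl1, those with the smallest p, had group means of at most 1.44 CPM.

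Across the 30 samples, the genes most like each member were ranked by Pearson's r of log2 CPM among 6956 genes. Samples of 1 group or mouse are not independent, so these are descriptions. Lef1 and Satb1 were each other's nearest gene (r = 0.861, and 0.551 after group means were removed). Lef1 was next nearest to Als2cl (0.808), and Satb1 to Pde4b (0.825) and Ccr7 (0.811), the lymph node chemokine receptor. Tcf7 was nearest to Inpp4b (0.825), Actn1 (0.788) and Aff3 (0.778), and its r with Lef1 was 0.317. Foxp1 was nearest to Ssh2 (0.842), Rapgef6 (0.794) and Tecpr1 (0.765). Foxo1 was nearest to Rad23b (0.960), Nol8 (0.957) and Pacs2 (0.954), Bach2 to Fbrs (0.910), R3hdm1 (0.908) and Cbl (0.905) and Myb to Kmt5b (0.910), Ttc13 (0.905) and Cept1 (0.905). Single samples near 0 can weigh heavily on the r of these 3 members. S+P C7 replicate 3 had 0.140 CPM of Foxo1 and 0 counts of Bach2 and Myb. Foxo1 had 0.417 CPM in S+P C4 replicate 2, and Myb had 0.0993 CPM in S+P C4 replicate 3. These samples had under 9000 detected genes, and their part in r was not tested. For Tcf7l2, which was at 3 counts or fewer in 41 of 56 libraries, the nearest were Ddx21 (0.621), Gm15500 (0.619) and Rpl5 (0.569).

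Markers of other cells were summed in every sample because B cells also express Bach2, Foxp1, Foxo1, Lef1 and Satb1. The 8 B cell markers summed to 671 to 1370 CPM in Naive, 716 to 810 in N+P C1, 418 to 1377 in N+P C5, 221 to 394 in Sensitized, 1.2 to 477 in S+P C4, 223 to 464 in S+P C5 and 106 to 8234 in S+P C7. Ighm carried most of it, and Ms4a1, Pax5 and Blk were at or under 3 counts in at least 27 of 30 samples. Cd22 (median 23.4 CPM, highest 212 CPM in S+P C5 replicate 4) and Cd79b (median 8.42 CPM, highest 61.2 CPM) were at or under 3 counts in only 5 and 8 samples. The sum was thus higher in Naive than in Sensitized samples, as Satb1 and Lef1 were, while it overlapped between S+P C5 and Sensitized, where Satb1 did not, and its part in the results was not tested.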

How the data were processed

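RNA-Seq libraries were made by SmartSeq2 and Nextera XT from sorted TFGS and read as 150 bp pairs. The authors deposited raw counts per gene for 56 libraries, without normalization. Per the submitters' processing notes and the paper's methods, reads were trimmed with Cutadapt 3.4, aligned to GRCm39 with STAR 2.6.1b and counted with featureCounts 2.0.1 after reads that mapped to several places were removed. The strand setting and annotation release are not given in the sources used here. The library method does not mark strand, so antisense genes cannot be told apart. Libraries had 6636532 to 32625243 counts. Without molecular identifiers, the floor of 3 counts covers counting error only.

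Libraries of 1 mouse and subset were summed. A library with identical counts in Naive replicate 1 and S+P C4 replicate 1 was left out of both. A nearly identical pair of S+P C7 replicates 1 and 2 (Pearson's r 0.997 across genes, against at most 0.929 for other pairs) was averaged and, with the other library of replicate 1, used as 1 sample, so 30 samples were used. GENCODE M39 held 54749 of the identifiers.

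One edgeR 4.0.16 quasi-likelihood fit of all 7 groups (TMM, filterByExpr with a minimum count of 10, robust, two-sided) gave log2 fold changes for 19657 genes, with Benjamini-Hochberg adjustment over all of them. The thresholds, from the paper's methods, were a log2 fold change beyond 0.9 in either direction and an adjusted p under 0.1. An SE is the absolute log2 fold change divided by the square root of the F statistic. The common biological coefficient of variation was 1.58. DESeq2 1.42.0 was an alternative. Software was R 4.3.3, Python 3.11.15, pandas 2.3.3, numpy 2.4.6 and matplotlib 3.10.9. The fits were tested on simulated counts with independent samples and the same dispersion for all genes, set lower than in these data. That test does not show how the fits behave at the spread found here.

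Same-numbered N+P subsets, and same-numbered S+P subsets, were taken as the same mouse. The column names give this shared number but do not name a mouse. Their deviations from group means correlated at 0.02 to 0.07 (N+P C5 and C1, 3 pairs), 0.08 to 0.15 (S+P C5 and C4, 6 pairs) and 0.08 to 0.18 (S+P C7 and C5, 4 pairs). Equal numbers in other groups are different mice, yet the same measure was -0.02 to 0.12 for S+P C4 and Sensitized (4 pairs). For Sensitized and Naive it was 0.04 to 0.05 (3 pairs). The correlations therefore do not settle which samples share a mouse. The main fit treats all samples as independent. Its p-values measure the spread between samples of a group and ignore that compared subsets can share mice, which only the replicate block takes into account.

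The members and lists were chosen with earlier results of these data known. Members were named in each comparison, with a log2 fold change only where the unadjusted p was under 0.05 or both thresholds were passed. The Satb1 interaction was named after its value was seen. List genes past both thresholds were named, or else the 2 with the smallest p in S+P C5 vs. Sensitized and in N+P C5 vs. Naive. The 3 genes most like each member were taken among tested genes with a mean log2 CPM of at least 3 (prior count 2). Some single genes are not reported here. Alternatives were DESeq2, another scaling (RLE, or library size only), no filter, only the groups compared, all 56 columns, each sample left out in turn and the replicate number as a block. Leaving out the 3 samples with under 9000 detected genes was added after the data were seen.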

Additional observations from a re-analysis of the deposited data

Results flagged for a closer look

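In groups of 4 or more samples, the highest or lowest value of a member was compared with its nearest neighbour by Dixon's 95% critical value. Of 32 combinations of member and group tested, 9 held a sample far from the others. The critical value gives about 1 in 20 by chance only for normally distributed values. That was not checked for these CPM values, so the count is not set against chance. No test of a cause was made.

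Tcf7 was low in Sensitized replicate 4 (299 CPM, the other 3 at 377 to 386 CPM) and high in S+P C5 replicate 6 (723 CPM, the other 5 at 410 to 514 CPM). Lef1 was high in S+P C7 replicate 3 (353 CPM, the other 4 at 24.7 to 77.9 CPM). Tcf7l2 was high in Sensitized replicate 2 (9.0 CPM, the other 3 at no more than 0.0911 CPM) and in S+P C4 replicate 3 (0.397 CPM, which was 4 counts). Satb1 was high in S+P C7 replicates 1 and 2 (64.3 CPM, the other 4 at 8.15 to 20.8 CPM). Bach2 was high in S+P C4 replicate 3 (354 CPM, the other 5 at 9.20 to 126 CPM) and in S+P C5 replicate 2 (129 CPM, the other 5 at 21.8 to 39.3 CPM). Myb was high in S+P C4 replicate 2 (296 CPM, the other 5 at 0.0993 to 32.7 CPM). Of these, the S+P C7 replicate 3, S+P C4 replicate 2 and S+P C4 replicate 3 samples had under 9000 detected genes and 1 library each.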

How the results depend on the processing

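The number of members past both thresholds moved with the tool and the samples, and the cause was not tested. With DESeq2 it was 2 in S+P C5 vs. Sensitized (1 by edgeR), 2 in S+P C7 vs. S+P C5 (0), 2 in S+P C5 vs. S+P C4 (1) and 2 for S+P C5 against N+P C5 (0). DESeq2 called 606 to 1102 of all genes per comparison where edgeR called 0 to 30. With library size only in place of TMM it was 1 for S+P C5 against N+P C5 (Satb1). With no filter on low counts it was 0 in S+P C5 vs. Sensitized and 0 in S+P C7 vs. Sensitized. When only the groups compared were fitted, it was 3 in Sensitized vs. Naive (Tcf7, Lef1 and Satb1), 1 in N+P C5 vs. N+P C1 (Satb1), 0 in S+P C7 vs. Sensitized and 1 for S+P C5 against N+P C5 (Satb1), with 0 to 142 genes called per comparison. With all 56 columns kept it was 0 in S+P C7 vs. Sensitized. With each sample left out in turn it was 0 to 1 in S+P C5 vs. Sensitized and 0 to 1 in S+P C7 vs. Sensitized. Without the 3 samples with under 9000 detected genes it was 1 in Sensitized vs. Naive (Lef1), 2 in S+P C5 vs. Sensitized, 2 in S+P C7 vs. Sensitized and 2 for S+P C5 against N+P C5 (Lef1 and Satb1 in each of the last 3).

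With the replicate block the number was 1 in N+P C5 vs. N+P C1 and 0 in S+P C5 vs. S+P C4, where same-numbered samples were taken as 1 mouse. It was 0 in S+P C5 vs. Sensitized and 0 in S+P C7 vs. Sensitized, where the numbers mark different mice. The block changed no other call of a member. Of the 20 fold changes of members with values in the text or an unadjusted p under 0.05, 301 alternative fits kept direction and side of the thresholds, 17 passed them newly, 19 no longer passed them and 4 reversed. With each sample left out in turn, the log2 fold change of Tcf7l2 ran from -6.10 to 1.05 in S+P C4 vs. Sensitized and from -6.01 to 0.31 in S+P C5 vs. Sensitized, the upper ends without Sensitized replicate 2; these fitted values lie near the floor and are no bounds. That of Lef1 in S+P C7 vs. S+P C5 ran from -0.068 (without S+P C7 replicate 3) to 1.38, and was -0.095 without the samples with under 9000 detected genes. Of 11 fold changes of list genes, 146 alternative fits kept direction and side, 4 passed newly and 34 no longer passed. At 200 cells per library, genes near 3 counts such as Tcf7l2 cannot be compared between groups.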
